A study of Homo sapiens with 5 samples.

Results

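The FOXO factors are forkhead transcription factors that sit at the end of the PI3K-AKT pathway. When AKT is active it phosphorylates them, 14-3-3 proteins bind the phosphorylated forms, and the factors leave the nucleus. When AKT is inactive they stay on chromatin and drive genes that hold cells in quiescence, slow G1 and protect against oxidative and nutrient stress. The set described here holds 10 genes out of 15187 measured in both deposited tables. It comprises the factors FOXO1, FOXO3 and FOXO4 and 7 genes known as their targets in growth arrest: CDKN1B, CCNG2, RBL2, BCL6, SESN1, SESN3 and PIK3IP1. The genes were picked by symbol and joined between the tables on the gene identifier, and all 10 passed the filter on low counts.

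The cells were SAS, an established human line of squamous cell carcinoma of the tongue, which belongs to the head and neck squamous carcinomas. They carried a control short hairpin RNA (shCtrl, 2 libraries) or a short hairpin RNA against CCT2 (shCCT2, 3 libraries), whose product is part of the chaperonin that folds actin and tubulin. No other genotype or agent is given for either group. Gene counts lie in 2 tables, the first with shCtrl 1, shCCT2 1 and shCCT2 2 and the second with shCtrl 2 and shCCT2 3. Each knockdown library was therefore compared with the shCtrl library beside it, and shCCT2 1 and 2 share shCtrl 1. The title of the series ties CCT2 to the PI3K-AKT pathway, and the question asked of these 10 genes is whether the transcripts of the pathway's FOXO arm moved with the knockdown. The labels do not give how many hairpin sequences were used or whether libraries came from separate cultures, and p-values therefore rest on a spread among libraries that may be only technical.

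Library totals ran from 16913585 to 18156592 counts. For the targeted gene, CCT2, normalised CPM (counts scaled to a common library size, with TMM factors) were 630 and 642 in the controls, against 296, 272 and 260 in the knockdown libraries, in the direction the labels give (adjusted p = 0.542 in edgeR's quasi-likelihood test and 3.8e-05 in DESeq2). The tables stood apart. The median absolute log2 change over all 13123 genes tested was 0.24 and 0.14 for the knockdown libraries of the first table and 0.51 for that of the second. All 8 squamous epithelial markers lay above 1 CPM in every library. They summed to 5026 CPM in shCtrl 1 against 3200 and 4248 CPM in shCCT2 1 and 2. In the second table the sums were 1289 CPM in shCtrl 2 and 1433 CPM in shCCT2 3. Of the markers of other cell types, the fibroblast list of 8 genes summed to 4.67 and 12.4 CPM in the controls and 3.06 to 4.86 CPM in the knockdown libraries, with no value above 0 for LUM, DCN and THY1. The leukocyte list of 8 summed to 62.2 and 121 CPM against 44.9 to 123 CPM, mostly CD68. Within it, shCCT2 2 stood apart, with PTPRC at 6.51 CPM (109 counts) and CD14 at 15.5 CPM, against at most 0.648 CPM and 6.23 CPM in the other libraries, and the part of this in the results for shCCT2 2 was not tested. The endothelial list of 8 summed to 38.7 and 57.0 CPM against 12.2 to 48.4 CPM, mostly EGFL7, with KDR without a value above 0 in shCtrl 1, shCCT2 2 and shCCT2 3. The share of reads in the last 20% of windows along transcripts was 17.3% in shCtrl 1 against 14.3% and 15.8% in shCCT2 1 and 2, and 15.8% in shCtrl 2 against 14.6% in shCCT2 3. It was lower in each knockdown library than in its own control, and its part in the results was not tested.

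FOXO factors bind the core letters GTAAACA, so the start sites of the 10 genes were searched for them on both strands, in windows from 250 bases before to 50 bases after each start in RefSeq's annotation of GRCh38.p14. All 10 genes had such windows. The full core occurred in FOXO4 and PIK3IP1, and the shorter letters TAAACA, which the full core contains, also occurred in RBL2, CDKN1B and FOXO3. These windows are shown because they fall on genes of both kinds, those that were lower in the knockdown libraries (FOXO4, PIK3IP1, RBL2) and those that were not (CDKN1B, FOXO3). Capitals mark the match, on the strand of the gene, where TGTTTA is the reverse complement of TAAACA.
FOXO4: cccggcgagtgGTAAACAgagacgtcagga
PIK3IP1: taaagagaggcTGTTTACcagaacagcata
RBL2: ggaagtacggatTGTTTAtcagctgtttga
CDKN1B: gatctcctcctcTGTTTAaatagactcgcc
FOXO3: ccgagcgaaacaTAAACAaacgcacgcaca
In the order printed they lie at chrX:71095863-71095892 (plus strand), chr22:31292454-31292483 (minus strand), chr16:53435606-53435635, chr12:12717324-12717353 and chr6:108560672-108560701 (all plus strand). The full core began 24 bases after the start in FOXO4 and 17 bases after a start in PIK3IP1. Of 10628 tested genes with a window, 3.59% held the full core and 10.2% held TAAACA. A match describes letters and not a bound site, and binding was not measured.

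Among the factors, FOXO1 and FOXO4 transcripts were lower in all 3 knockdown libraries, while FOXO3 stayed within 0.24 of its own control on the log2 scale in each. FOXO1, the family member best known from insulin signalling, had control levels of 26.9 and 20.5 CPM (shCtrl 1 and 2). Its knockdown levels were 14.8, 14.0 and 13.0 CPM (shCCT2 1, 2 and 3). The 3 knockdown values lay close together and below both controls. Against its own control, FOXO1 was at 55.0% in shCCT2 1 (95% interval 47.0 to 64.3, exact binomial on the 2 counts), 52.0% in shCCT2 2 (44.2 to 61.0) and 63.8% in shCCT2 3 (54.0 to 75.1). These intervals cover counting error only, as do all below. The fitted log2 change was -0.79 ± 0.23 (SE, 3 knockdown and 2 control libraries), and 9.91% of all genes tested had a lower fitted change. In bulk RNA, fewer cells that express a gene and less of its RNA per cell cannot be told apart.

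FOXO4, whose gene lies on the X chromosome, had 3.17 CPM in shCtrl 1 against 0.943 and 1.79 CPM in the knockdown libraries of the first table. In the second it had 12.4 CPM in the control and 5.40 CPM with the knockdown. Each knockdown library was below its own control, but shCCT2 3 was above shCtrl 1, so the groups overlapped. The shares of the control were 29.7% (15.9 to 52.6), 56.5% (34.9 to 89.7) and 43.6% (34.1 to 55.3), on 16, 30 and 99 counts against 55, 55 and 234. The fitted log2 change was -1.20 ± 0.41 (SE), with -1.21 in the first table and -1.20 in the second table.

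FOXO3, a factor tied to stress resistance and longevity, had control levels of 79.1 and 86.3 CPM. The knockdown libraries held 76.5, 69.5 and 102 CPM, on both sides of the controls. Beyond counting error it was lower in shCCT2 2, at 87.97% of control (81.3 to 95.2), and higher in shCCT2 3, at 118% (110.4 to 126). The fitted log2 change was 0.04 ± 0.18 (SE), and its sign changed with the scaling and the libraries used. Per kilobase of exonic length (GENCODE 29), FOXO3 was the most abundant of the factors, with 10.2 and 11.2 CPM per kb in shCtrl 1 and 2 against 4.69 and 3.57 for FOXO1 and 0.961 and 3.76 for FOXO4. In shCCT2 1, 2 and 3 the same scale gave 9.91, 9.01 and 13.2 for FOXO3, 2.58, 2.44 and 2.28 for FOXO1 and 0.286, 0.542 and 1.64 for FOXO4. The gap between FOXO3 and FOXO1 was thus wider in every knockdown library than in its own control. The family also has FOXO6, which is outside the set and is named after its values were seen. It had 37 and 23 counts in shCtrl 1 and 2 and 17, 19 and 3 counts in shCCT2 1, 2 and 3, with a fitted log2 change of -1.62 ± 0.62 (SE).

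**Figure D1:**
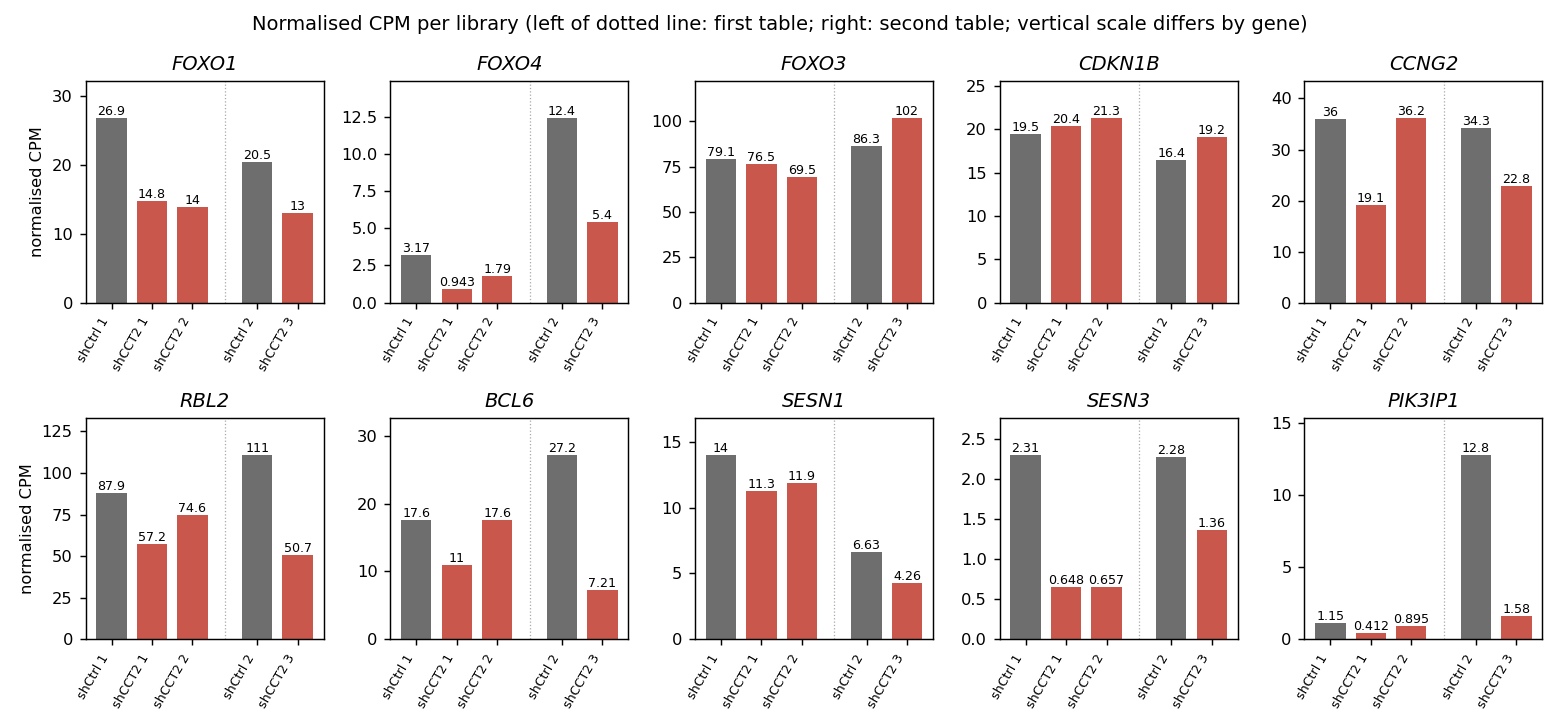
Normalised CPM of the 10 genes in each library, as bars from 0 with the value above each bar, grey for shCtrl and red for shCCT2, the first table left and the second table right of the dotted line. FOXO1 was at 13.0 to 14.8 CPM in the 3 knockdown libraries and at 20.5 and 26.9 CPM in the controls, while CDKN1B stayed between 16.4 and 21.3 CPM.

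The targets that act on the cell cycle did not move as 1 group. CDKN1B encodes p27, the CDK inhibitor through which FOXO factors are classically described to arrest cells in G1. It was at 19.5 and 16.4 CPM in shCtrl 1 and 2 and at 20.4, 21.3 and 19.2 CPM in shCCT2 1, 2 and 3. The groups overlapped, and the fitted log2 change was 0.15 ± 0.22 (SE). CDKN1B was higher than its own control in all 3 knockdown libraries, as were 20.2% of all genes tested, and each of its intervals on the share of control included 100%: 90.03 to 122, 94.0 to 127 and 99.8 to 136.

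CCNG2 encodes cyclin G2, an unconventional cyclin that restrains proliferation. Its control levels of 36.0 and 34.3 CPM were close. It was at 19.1 CPM in shCCT2 1 and 22.8 CPM in shCCT2 3, but 36.2 CPM in shCCT2 2, the same as the control. The shares of the control were 53.1% (46.3 to 60.8), 100.4% (89.6 to 112) and 66.4% (58.5 to 75.2) in shCCT2 1, 2 and 3. The 2 knockdown libraries of the first table, which share 1 control, therefore differed by more than counting error, and the fitted log2 change was -0.47 ± 0.31 (SE). It was -0.29 without shCCT2 1 and -0.74 without shCCT2 2.

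RBL2 encodes p130, the retinoblastoma relative that assembles the DREAM repressor complex in resting cells. The controls held 87.9 and 111 CPM. The knockdown libraries held 57.2, 74.6 and 50.7 CPM, all below both controls. The shares of the control were 65.1% (59.96 to 70.6), 84.9% (78.7 to 91.5) and 45.7% (42.2 to 49.4), and the fitted log2 change was -0.73 ± 0.24 (SE). The change was -0.42 in the first table and -1.13 in the second table. Without shCtrl 2 or shCCT2 3 the fit, with its table term, rests on the first table alone, and gave -0.42. Without shCtrl 1 it rests on the second table alone, and gave -1.10. These values restate the changes within each table. RBL2 counts were not whole in any of the 5 libraries, which marks it as a gene whose count was estimated and is uncertain. AKTIP is annotated over part of RBL2 on the opposite strand. AKTIP had 29.7 CPM in the control and 56.5 CPM in the knockdown library of the second table, the direction opposite to RBL2, and lay between 24.3 and 27.2 CPM in the first table. The sources used here do not say whether counting used strand.

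BCL6 encodes a zinc finger repressor, best known from germinal centre B cells, that FOXO factors induce. In the first table the control held 17.6 CPM and the knockdown libraries 11.0 and 17.6 CPM. In the second, 27.2 CPM stood against 7.21 CPM, 26.5% of the control (21.7 to 32.1). The change was thus -0.65 in shCCT2 1, -0.003 in shCCT2 2 and -1.85 in shCCT2 3 on the log2 scale, and the fitted value was -1.01 ± 0.45 (SE). It became -0.30 without shCCT2 3 or shCtrl 2, which leaves the comparison of the first table alone. Without shCtrl 1 it was -1.89, from the second table alone.

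The remaining targets act in nutrient and growth factor signalling. SESN1 and SESN3 encode sestrins, stress proteins that hold back mTORC1. SESN1, which p53 also induces, was at 14.0 CPM in shCtrl 1 against 11.3 and 11.9 CPM in shCCT2 1 and 2, and at 6.63 CPM in shCtrl 2 against 4.26 CPM in shCCT2 3. The controls differed from each other by more than the knockdown libraries differed from them, and the fitted log2 change was -0.43 ± 0.29 (SE). SESN3 was scarce, with 40 and 43 counts in the controls and 11, 11 and 25 in the knockdown libraries. Its levels of 2.31 and 2.28 CPM in the controls were close, and 0.648, 0.657 and 1.36 CPM in the knockdown libraries lay below both. The shares of the control were 28.1% (13.0 to 55.8), 28.5% (13.2 to 56.5) and 59.9% (35.04 to 100.3), and the fitted log2 change was -1.34 ± 0.50 (SE).

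PIK3IP1 encodes a transmembrane protein that binds PI3K and inhibits it, which places it upstream of AKT as well as downstream of FOXO. It had the lowest fitted log2 change of the 10, -1.90 ± 0.70 (SE), and 0.960% of all genes tested had a lower one. That value rests mainly on the second table, where PIK3IP1 had 12.8 CPM in the control and 1.58 CPM with the knockdown, 12.4% of the control (8.12 to 18.3). In the first table it was near the limit of counting, with 20 counts in the control and 7 and 15 in the knockdown libraries. The knockdown library of the second table was above the control of the first table, so the groups overlapped. The fitted change was -0.81 without shCCT2 3 or shCtrl 2, which leaves the comparison of the first table alone. Without shCtrl 1 it was -2.98, from the second table alone. An antisense gene, PIK3IP1-AS1, is annotated over PIK3IP1, and overlapping genes on the other strand are also annotated for BCL6, SESN1 and SESN3.

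**Figure D2:**
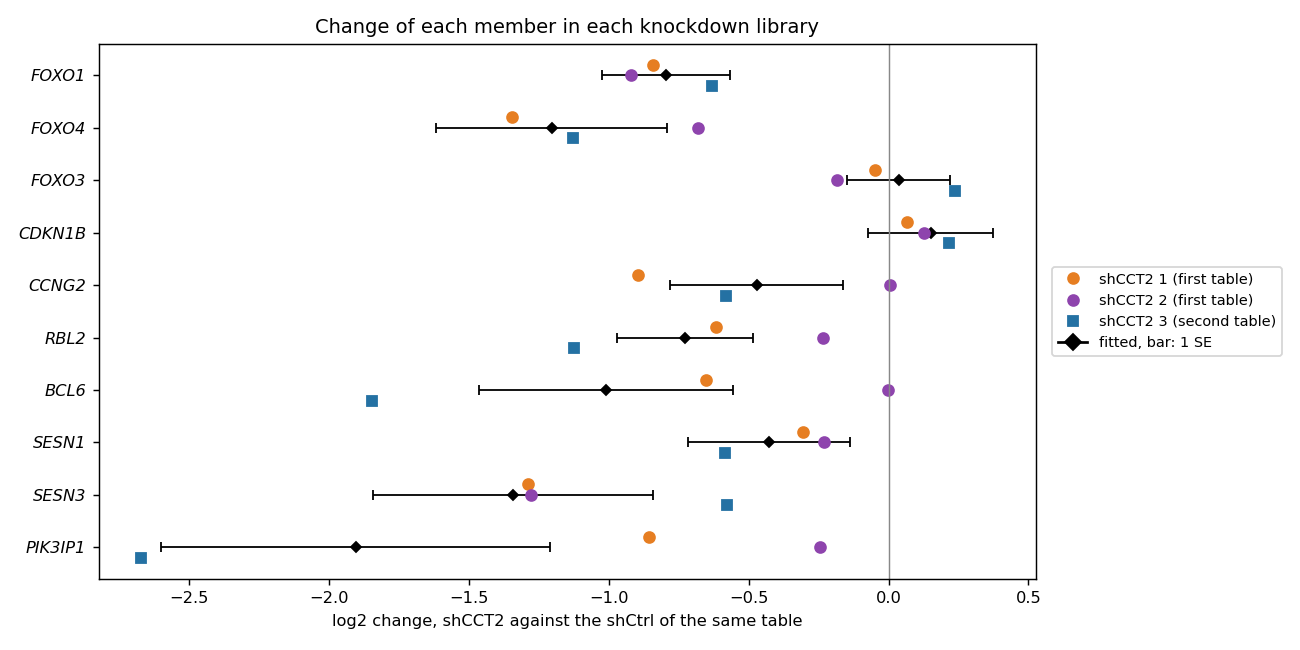
Log2 change of each gene against the control of its own table in shCCT2 1 (orange), shCCT2 2 (purple) and shCCT2 3 (blue squares), with the fitted change as a black diamond and 1 SE as a bar. FOXO1, FOXO4, RBL2, SESN1, SESN3, PIK3IP1 and, by -0.003 in shCCT2 2, BCL6 lie left of 0 in all 3 libraries. FOXO3 lies on both sides of 0, and CDKN1B lies slightly right of 0 in all 3 libraries. Of the 3 libraries, shCCT2 2 is nearest to 0 for FOXO4, CCNG2, RBL2, BCL6, SESN1 and PIK3IP1.

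Across the set, 8 of 10 genes had a lower fitted value in the knockdown, where 51.5% of all genes tested did. The 10 genes were chosen with earlier results of these data known, so these counts describe them and do not test them. By library, 9 of 10 were lower in shCCT2 1, 8 of 10 in shCCT2 2 and 8 of 10 in shCCT2 3, where 50.1%, 50.1% and 51.2% of all genes were. Lower in all 3 knockdown libraries were 7 of 10, where 21.4% of all genes were, and BCL6 is among the 7 only by its -0.003 in shCCT2 2. Below both controls in all 3 were FOXO1, RBL2, SESN3 and BCL6, 4 of 10, where 8.28% of all genes were. BCL6 again counts by a margin that rounding hides, 17.55 CPM in shCCT2 2 against 17.59 CPM in shCtrl 1. At an unadjusted p under 0.05 in edgeR's quasi-likelihood test, 5 of 10 were lower and 0 higher, where 4.57% and 2.83% of all genes were. The 5 were FOXO1, RBL2, FOXO4, PIK3IP1 and SESN3, with unadjusted values from 0.0121 for FOXO1 to 0.0345 for SESN3. Counted in either direction, members under 0.05 were 0 of 10 without shCCT2 1, where 492 of 13040 genes tested were. Without shCCT2 3 they were 2 of 10, where 255 of 12623 genes were. Without shCCT2 2 they were 5 of 10, where 1582 of 13032 genes were. Leaving out a control leaves 1 shCtrl library, so no count is given for those fits.

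None of the 10 passed after adjustment over all genes (edgeR, Benjamini-Hochberg adjusted p = 0.542 for those 5 and for BCL6). The remaining adjusted p-values were 0.556 for CCNG2, 0.561 for SESN1, 0.769 for CDKN1B and 0.940 for FOXO3. The share of all genes called was 0%, since edgeR called 0 of 13123 genes, with 972 at an unadjusted p under 0.05, limma voom called 0 and DESeq2's Wald test called 17. DESeq2 called none of the 10 either, with the lowest adjusted p at 0.348 for FOXO1, and gave SESN3 no adjusted p. Of the 11596 genes to which DESeq2 gave an adjusted p, 0.147% were called. The fit had 2 residual degrees of freedom.

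The median fitted log2 change of the 10 genes was -0.76, beside -0.02 over all genes tested. By library the median was -0.75 in shCCT2 1, -0.23 in shCCT2 2 and -0.61 in shCCT2 3, beside medians of all genes within 0.03 of 0. The library values carry a pseudocount of 0.5 CPM, which draws scarce genes such as SESN3 toward 0. CCT2 itself had log2 changes of -1.09, -1.21 and -1.30 in shCCT2 1, 2 and 3. The median absolute change over all genes tested was also smallest in shCCT2 2, at 0.14 against 0.24 in shCCT2 1 and 0.51 in shCCT2 3. What lies behind the weaker shift in shCCT2 2 was not tested.

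The tables, which share no library, gave different orders among the genes. In the first table, 3.19% of all genes had a lower change than FOXO1, 1.52% than FOXO4 and 0.488% than SESN3, against 24.3%, 12.8% and 21.8% in the second table. PIK3IP1 and BCL6 stood lower in the second table, where 1.78% and 5.92% of genes had a lower change, against 4.05% and 16.4% in the first table. FOXO4 had nearly the same value in both tables. The difference in change between the tables was tested as an interaction in edgeR, which left 1 residual degree of freedom. For BCL6 the change in the second table minus that in the first was -1.61 ± 0.54 (SE, log2; unadjusted p = 0.0256, adjusted p = 0.236, edgeR). PIK3IP1 gave -2.19 ± 0.90 (unadjusted p = 0.0521, adjusted p = 0.295) and RBL2 -0.72 ± 0.36 (unadjusted p = 0.0943, adjusted p = 0.362). FOXO1 gave 0.25 ± 0.38 (adjusted p = 0.758) and FOXO3 0.35 ± 0.29 (adjusted p = 0.564). No gene of the set passed. Over all genes the interaction called 0% in edgeR, with 17.2% at an unadjusted p under 0.05, and 272 of 13123 genes fitted in DESeq2. None of the set was among these 272, which says little at so small a share. DESeq2 gave FOXO4, SESN3 and PIK3IP1 no adjusted p.

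**Figure D3:**
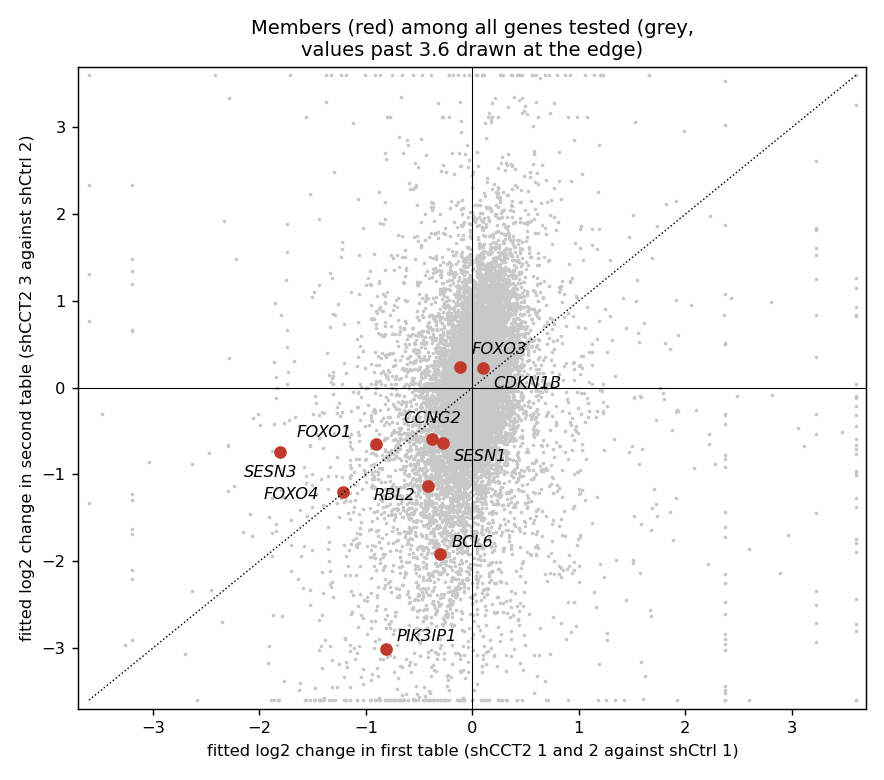
Fitted log2 change in the first table (horizontal) against the second table (vertical) for all genes tested (grey points) and the 10 named genes (red), with a dotted line of equal change. The grey cloud is wider along the second table, FOXO4 lies on the line at -1.21 and -1.20, and PIK3IP1 and BCL6 lie far below it.

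The controls themselves differed. PIK3IP1 was 11.1 times as high in shCtrl 2 as in shCtrl 1 and FOXO4 was 3.91 times as high, while SESN1 was at 0.473 times. FOXO1, FOXO3, CDKN1B, CCNG2 and SESN3 lay between 0.762 and 1.09 times. RBL2 and BCL6 were at 1.26 and 1.55 times. The gap rests on 1 control library in each table and was not tested. For FOXO4 the knockdown libraries kept this gap, at 0.943 and 1.79 CPM against 5.40 CPM. For PIK3IP1 they were nearer to each other than the controls were, at 0.412 and 0.895 CPM against 1.58 CPM.

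Other genes that FOXO factors are known to drive were taken from a list of 30, of which 26 were tested. Of these, 18 had a lower and 8 a higher fitted value, with a median log2 change of -0.14, and 51.5% of all genes tested had a lower one. Lower in all 3 knockdown libraries were 9, where 21.4% of all genes were. None passed in edgeR after adjustment over all genes, and 3 were lower and 0 higher at an unadjusted p under 0.05, where 4.57% and 2.83% of all genes were. DESeq2 called TNFSF10 alone, beside 0.147% of the genes to which it gave an adjusted p. TNFSF10, the gene of TRAIL, a ligand that triggers apoptosis, had 16.5 and 20.8 CPM in the controls and 5.42, 5.19 and 4.53 CPM in the knockdown libraries, which lay close together and below both controls. Its adjusted p was 0.000905 in DESeq2 and 0.542 in edgeR. The mitochondrial superoxide dismutase gene SOD2 had a fitted change of -0.86 ± 0.28 (SE). MXI1, which encodes a MYC antagonist, had 34.5 CPM against 19.7 and 25.8 CPM in the first table and 71.6 against 10.8 CPM in the second. The muscle ubiquitin ligase gene FBXO32 (atrogin-1) had 130.4 CPM against 56.0 and 131 CPM in the first table and 55.6 against 22.1 CPM in the second. Like CCNG2, it was near its control in shCCT2 2 and lower in the other libraries.

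Genes that act on FOXO proteins lay on both sides. Of 27 tested, 12 had a lower and 15 a higher fitted value, where 51.5% and 48.5% of all genes did, with a median log2 change of 0.04. In edgeR and DESeq2 0 passed, where 0% of all genes and 0.147% of those given an adjusted p were called. At an unadjusted p under 0.05 in edgeR, 1 was higher and 0 lower, where 2.83% and 4.57% of all genes were. That gene was PHLPP2, which encodes a phosphatase of AKT, with a fitted change of 0.62 ± 0.24 (SE). The kinase gene PDPK1, whose product activates AKT, had 0.34 ± 0.18. The PI3K catalytic gene PIK3CA had -0.31 ± 0.18. The phosphorylation and location of FOXO proteins were not measured.

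The other genes of the RBL2 complex lay on both sides. Of 12 tested genes of the RB family and the DREAM complex, 5 had a lower and 7 a higher fitted value, where 51.5% and 48.5% of all genes did. Their median log2 change was 0.17. In edgeR and DESeq2 0 passed the threshold, where 0% of all genes and 0.147% of those given an adjusted p were called. RBL1, which encodes the relative p107, had 64.6 CPM in the control against 107 and 79.6 CPM in the first table and 25.8 against 78.0 CPM in the second (fitted 0.97 ± 0.30, SE, unadjusted p = 0.0156, adjusted p = 0.542, edgeR). E2F5, an E2F factor that pairs with p130, had a fitted change of -1.52 ± 0.48. E2F4, the main E2F partner of p130, had 0.62 ± 0.26, and TFDP2, which encodes a dimer partner of E2F proteins, had -0.39 ± 0.19.

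Of the 5 other CDK inhibitor genes, 4 had a lower and 1 a higher fitted value, where 51.5% and 48.5% of all genes did. None passed in edgeR or DESeq2, which called 0% of all genes and 0.147% of those given an adjusted p. CDKN1A, which encodes p21, was the higher one, at 87.8 and 86.5 CPM in the controls and 157, 127 and 123 CPM in the knockdown libraries, all above both controls (fitted 0.61 ± 0.19, SE). Over all genes tested, 7.97% lay above both controls in this way. CDKN1C, the gene of p57, had 2.02 CPM against 0.589 and 1.55 CPM in the first table and 8.75 against 1.15 CPM in the second. CDKN2A, which encodes p16 and ARF, had 139 CPM against 107 and 122 CPM in the first table and 36.8 against 10.8 CPM in the second. CDKN2D had -0.54 ± 0.42. The inhibitors p21, p27 and p57 of the same protein family thus showed fitted changes of 0.61, 0.15 and -1.83.

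Genes that are silenced when cells enter quiescence were mostly higher. Of 24 tested, 19 had a higher fitted value, where 48.5% of all genes did, with a median log2 change of 0.57. By library the median was 0.40 in shCCT2 1, 0.14 in shCCT2 2 and 0.99 in shCCT2 3. None passed in edgeR or DESeq2, which called 0% of all genes and 0.147% of those given an adjusted p. At an unadjusted p under 0.05 in edgeR, 6 were higher and 0 lower, where 2.83% and 4.57% of all genes were. RRM2, a subunit gene of ribonucleotide reductase, had 336 CPM against 611 and 482 CPM in the first table and 121 against 531 CPM in the second. E2F2 and CCNE2, which act at the G1/S step, had fitted changes of 0.88 ± 0.27 and 1.68 ± 0.55 (SE), and the proliferation marker gene MKI67 had 0.72 ± 0.26. The shift was smallest in shCCT2 2 here as well.

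**Figure D4:**
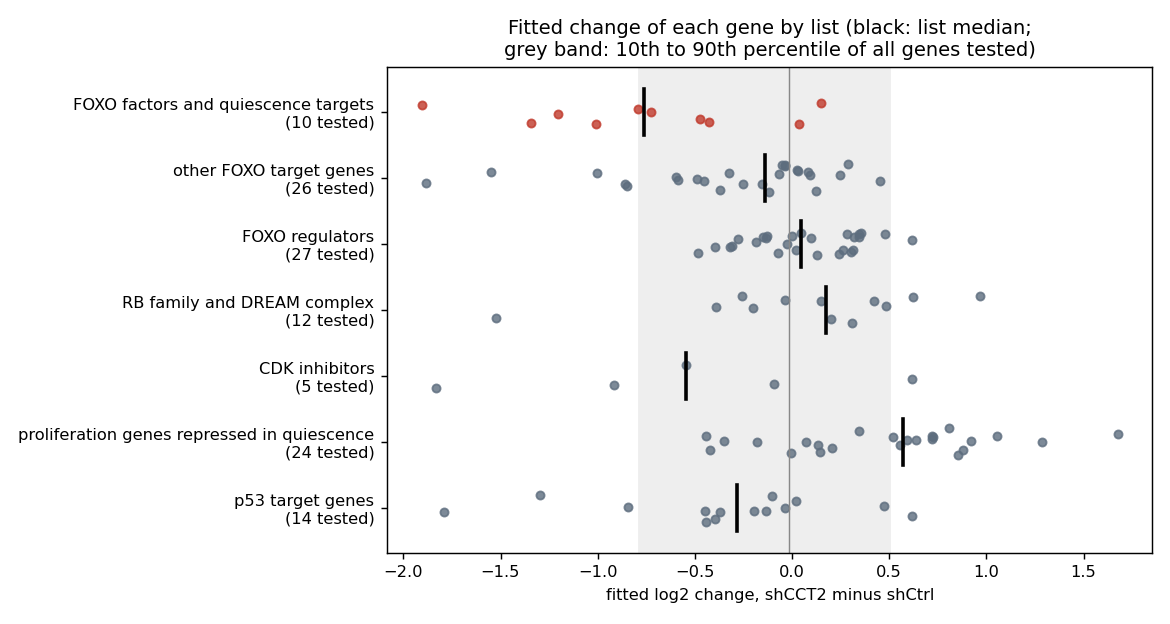
Fitted log2 change of each tested gene by list, with the 10 genes of the set in red, the list median as a black line and the grey band from the 10th to the 90th percentile of all genes tested (-0.79 to 0.51). The set centres on -0.76, the other FOXO targets on -0.14 and the proliferation genes on 0.57.

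The genes with the pattern most like FOXO1 were sought among non-members whose mean CPM was 5 or more, by the largest difference in log2 change over the 3 knockdown libraries. The 5 closest were GRK5, ADGRF1, SHISA2, EYA2 and MAP3K5, with largest differences of 0.12, 0.13, 0.18, 0.20 and 0.22. GRK5 encodes a kinase of G protein-coupled receptors, ADGRF1 an adhesion receptor, EYA2 a transcriptional co-activator and phosphatase, and MAP3K5 the stress kinase ASK1. Their fitted changes ran from -0.92 to -0.71. The other 9 genes of the set were not candidates, and 3 log2 changes that partly share a control are a thin basis for likeness.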

How the data were processed

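RNA of the 5 SAS libraries was taken up in Trizol, mRNA was selected on oligo(dT) beads and fragmented, and random-primed cDNA was read on an MGI sequencer, per the labels' protocols. The authors deposited estimated counts per gene, named read counts per the file headers, in 2 tables. Between 86.2% and 87.9% of values per library were whole, so they are expected counts. STAR 1.5.1, HTSeq and mm10 appear in the submitters' processing notes without a role. The gene identifiers are human (98.8% and 98.7% matched RefSeq's GRCh38.p14), and the sources used here do not give the build behind the tables. The authors also deposited a signal file per library, with reads in windows along transcripts per the file headers.

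Counts were rounded. The 15187 genes in both tables were tested by quasi-likelihood in edgeR 4.0.16 (R 4.3.3), with TMM scaling, the filter filterByExpr and terms for hairpin and table, and p-values were adjusted by Benjamini-Hochberg over 13123 genes. SE is the fitted change divided by the root of F. Single-library changes use a pseudocount of 0.5 CPM. Intervals are 95% Clopper-Pearson. The fit was tested on simulated data. No pair of libraries agreed within sampling noise (chi-square per degree of freedom at least 19.3).

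The members and lists were chosen with earlier results of these data known. Named are the 10 members, CCT2, up to 4 genes per other list by smallest p (some are not reported here), and the 5 genes most like FOXO1. FOXO6 and AKTIP were added after their values were seen. Alternatives were limma 3.58.1 voom, DESeq2 1.42.0, other scalings, filters and pseudocounts, a replicate block, no table term, robust estimation and each library left out.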

Additional observations from a re-analysis of the deposited data

How the results depend on the processing

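Signs of the fitted changes of single genes held in 139 of 146 values under the alternatives, with the same side of the threshold. The exceptions were FOXO3 and SESN1. FOXO3 was -0.00051 without a table term, -0.029 with library totals alone, -0.11 in the first table alone and between -0.12 and 0.27 with each library left out. With the replicate number as a block in place of the table, FOXO3 was -0.18, SESN1 0.26, FOXO4 -2.28 in place of -1.20, BCL6 -0.65 in place of -1.01, the median of the 10 genes -0.62 and the number of genes called 0. Deviations from the group means correlated at 0.69 for number 1, whose libraries share a table, and at -0.60 for number 2, whose libraries do not. With 2 controls these deviations mirror each other (correlation -1), so they cannot tell whether the numbers pair the libraries.

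The median of the 10 genes, -0.76, was -0.40 in the first table alone, -0.49 with at least 1 CPM in every library, a filter that dropped FOXO4, SESN3 and PIK3IP1, and between -0.81 and -0.40 with each library left out. It was -0.40 without shCtrl 2 or shCCT2 3, which again leaves the comparison of the first table alone. SESN3 ran from -1.81 to -0.71 and SESN1 from -0.61 to -0.28 with each library left out. The number of genes called was 17 in DESeq2 and 0 to 2 with each library left out, 2 without shCCT2 2. Genes at an unadjusted p under 0.05 in edgeR numbered 972 in the main fit. Among fits that kept both controls they ran from 218 without a table term to 1582 without shCCT2 2. Members among them were 3 and 5 of 10 in those fits, and 0 without shCCT2 1, where 492 genes were under 0.05. CCT2 passed in DESeq2 (-1.21). Genes whose change differed between tables numbered 272 in DESeq2 and 679 with at least 1 CPM in every library, against 0. With a pseudocount of 2 CPM, 3 single-library changes of the 10 genes moved by more than the spread between libraries, and with 0.1 CPM none did. SESN3 and PIK3IP1 had at most 43 counts per library, apart from PIK3IP1 in shCtrl 2, so their shares are known only within wide intervals.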

Other observations

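SESN1 is shared between FOXO factors and p53, so p53 target genes were also counted. Of 14 tested, 11 had a lower and 3 a higher fitted value, where 51.5% and 48.5% of all genes did, with a median log2 change of -0.28. Lower in all 3 knockdown libraries were 6, where 21.4% of all genes were. None passed in edgeR or DESeq2, which called 0% of all genes and 0.147% of those given an adjusted p. At an unadjusted p under 0.05 in edgeR, 3 were lower and 1 higher, where 4.57% and 2.83% of all genes were. The cytokine gene GDF15 had a fitted change of -1.79 ± 0.48 (SE), with -2.97, -1.17 and -1.67 in shCCT2 1, 2 and 3. TP53INP1, a stress protein gene, had -1.30 ± 0.46, and CCNG1, which encodes cyclin G1, the relative of cyclin G2, had -0.84 ± 0.32. CDKN1A was the higher gene, as given above. These genes too were listed with earlier results of these data known.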
